A study of Mus musculus with 6 samples.

Results

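The genes described here encode the general machinery of pre-mRNA splicing: SR proteins, heterogeneous nuclear ribonucleoproteins (hnRNPs) and core spliceosome factors. A list of 44 symbols was matched to the deposited Ensembl gene identifiers, and all 44 were found among the 21553 genes with values. They were sorted by role into 12 SR and Tra2 proteins, 8 factors of the 3′ splice site and branch point, 5 proteins of the small nuclear ribonucleoprotein particles (snRNPs), 4 SR-related coactivators, 2 TIA proteins, 11 hnRNPs and 2 STAR proteins. RNA came from hippocampal neurons of C57bl/6 mouse embryos at E16.5 that had been cultured for 10 days. The neurons were left untreated, or received 55 mM KCl for 0.5 h or for 3 h, and each of the 3 groups has 2 libraries. High KCl depolarises the whole culture, so it models synchronous activity rather than the firing of a circuit, and the primary cultures hold glia as well as neurons. The study's title concerns a splicing network that responds to activity, and the question asked here is whether the level of the general splicing factors moved as well.

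Splicing removes introns in a stepwise assembly. The U1 snRNP marks the 5′ splice site, while SF1 and both U2AF subunits mark the branch point, the pyrimidine tract and the 3′ AG, after which the U2 snRNP and the U4/U6.U5 tri-snRNP join to form the catalytic spliceosome. SR proteins bind exonic enhancers and recruit these factors, and many hnRNPs bind silencers and act against them, so that the balance of both families sets the inclusion of weak exons. Many genes of both families also limit their own expression by splicing in an exon that sends the transcript to decay. In neurons, depolarisation is known to change the splicing of channel, receptor and adhesion genes.

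Levels are given as cRPKM, the authors' read density per gene length and library depth (a form of RPKM), first for replicate 1 and then for replicate 2. Changes are log2 fold changes ± SE from edgeR's quasi-likelihood fit to the read counts of all 6 libraries, and a gene was called higher or lower at a Benjamini-Hochberg adjusted p under 0.05 over 15895 genes tested. What makes the 2 libraries of a group biological duplicates is not named, so a p-value covers only the spread seen between such libraries, which may be technical. Library totals ran from 98882007 to 141865913 counts, and each member had at least 3086 counts in every library, so counting error was small. The 8 pan-neuronal markers summed to 2213 and 2104 cRPKM in untreated cultures. Markers of other cells were present as well. The 7 oligodendrocyte lineage markers summed to 291 and 197 cRPKM in untreated cultures, and the 5 fibroblast markers to 43.4 and 30.6. The 7 astrocyte markers summed to 836 and 1253, the 6 progenitor markers to between 81.9 and 91.1, whereas 7 microglial markers summed to at most 1.37 and 5 endothelial markers to at most 1.39 cRPKM in any library. Cx3cr1, Tmem119, Ptprc, Flt1 and Cdh5 stayed below 0.1 cRPKM throughout.

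All members were expressed at a substantial level before stimulation. Untreated means ran from 16.9 cRPKM for Tial1 to 189 for Hnrnpa1, with a median of 43.8, against a median of 7.80 over all genes tested, and 18 of the 44 were among the 1590 most abundant of the 15895 genes. The hnRNPs were the most abundant group, with a median of 80.6 cRPKM and 8 of 11 among those 1590. The SR and Tra2 genes had a median of 36.9 and the 3′ splice site group one of 39.5. Together the 44 genes took 0.747% and 0.714% of all counts in the untreated libraries, 0.761% and 0.772% at 0.5 h, and 0.893% and 0.956% at 3 h. The share at 3 h was above that of each of the other 4 libraries.

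After 0.5 h of KCl no member passed the test in either direction (edgeR, all 44 adjusted p = 1). The count was also 0 by DESeq2, by limma and with the replicate number as a block. It was 0 at an unadjusted p under 0.05 too, where the smallest unadjusted p by edgeR was 0.27. At that threshold 0.629% of all genes were higher and 0.176% lower. Over all genes tested, 0.0377% were called higher by edgeR, 0.0818% with the block, 0.247% by DESeq2 and 0.0629% by limma; lower calls were 0%, 0%, 0.0141% and 0%. The members' log2 changes ran from −0.08 (Hnrnpd) to 0.18 (Tra2a) with a median of 0.04, beside 0.00 over all genes tested, and the 95% intervals together spanned −0.47 to 0.60. Both 0.5 h libraries lay above both untreated libraries for 12 members (27.3%) and below them for 0, while the same held for 14.8% and 6.38% of all genes.

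By 3 h members of 5 of the 7 role groups were higher than in untreated cultures, the exceptions being the coactivators and the STAR proteins. Of the 44 members 16 (36.4%) were called higher and 1, Tia1, lower (2.27%). Over all genes 8.71% were called higher and 6.84% lower. The members were chosen with earlier results of these data known, so these shares are a description. The 16 rises were moderate, from 0.42 ± 0.09 for Sf3b3 (1.34-fold) to 1.36 ± 0.16 for Tra2a (2.56-fold). The median over the 44 was 0.40, and 41 (93.2%) lay above 0. Over all genes the median was −0.02, and 48.1% lay above 0. Every member was at or above percentile 69.4 of the untreated levels of all genes, and no share was taken among genes of like level. With the replicate number as a block, 26 were called higher and 1 lower (18.6% of all genes each way), and these held all 17. DESeq2 called 27 higher and 1 lower (14.4% and 11.9% of all genes), and limma 15 and 1 (6.44% and 7.73%). Both 3 h libraries lay above both untreated ones for 33 members and below them for 2, against 24.1% and 35.9% of all genes. Both 3 h libraries exceeded all 4 other libraries for 29 members (65.9%) and for 19.8% of all genes. The calls need both untreated libraries: without either one, no member was called in either direction, with 1 untreated library and 1 degree of freedom less to estimate the spread. Of the 17, 8 kept their call without 0.5 h replicate 1, 9 without 0.5 h replicate 2, 13 without 3 h replicate 1 and 9 without 3 h replicate 2. The 8 called in each of the 4 fits that keep both untreated libraries were Srsf2, Srsf6, Tra2a, U2af1, Sf1, Snrpb, Prpf4b and Tia1. By limma and with library totals, Srsf5 and Tial1 lost their calls.

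**Figure D1:**
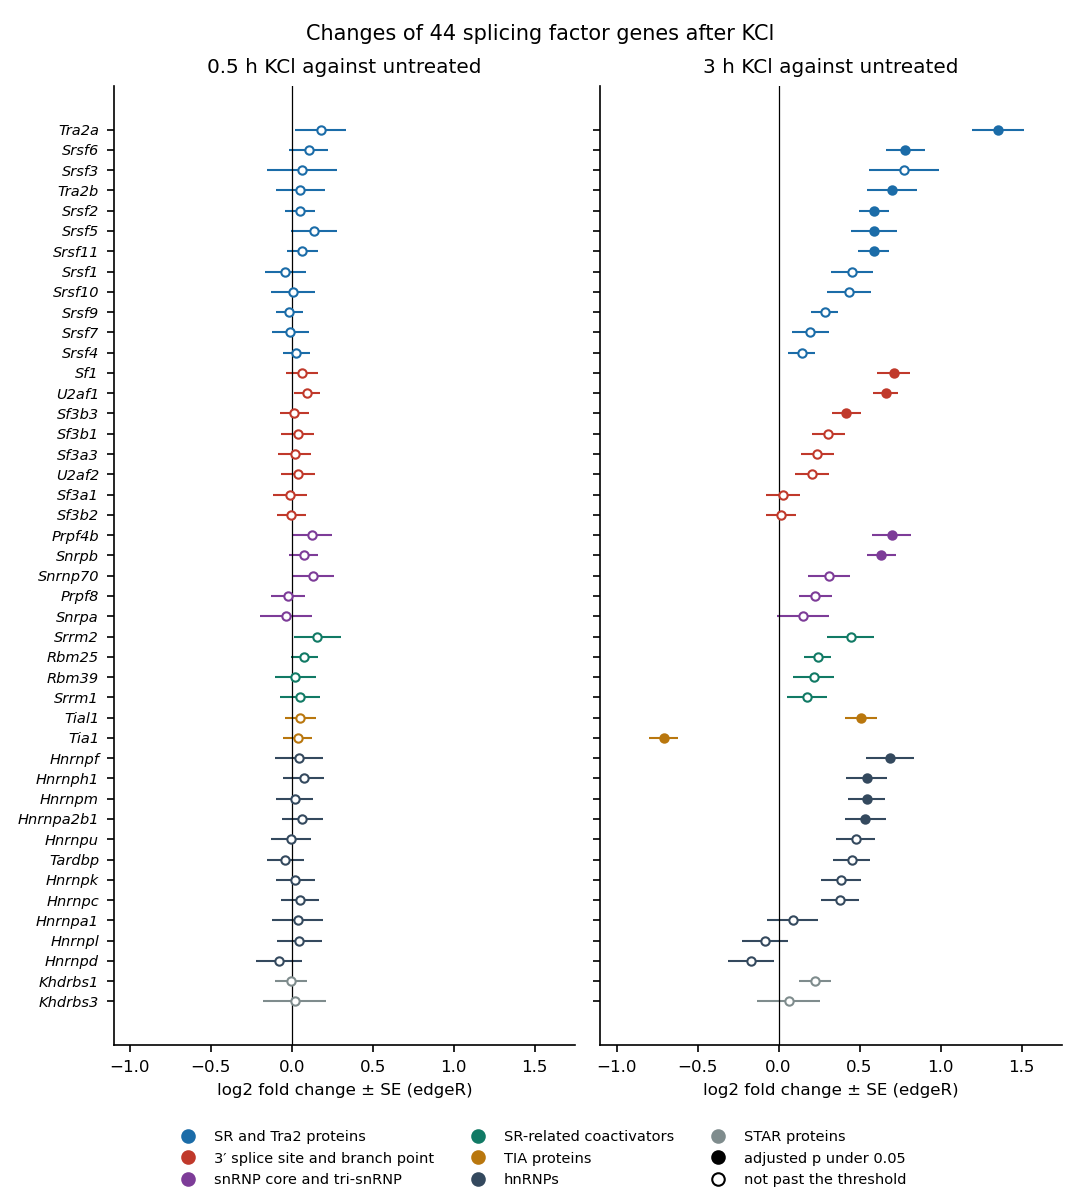
Log2 fold change ± SE of each of the 44 genes (rows, coloured by role) after 0.5 h (left) and 3 h (right) of KCl against untreated cultures. At 0.5 h all values lie between −0.08 and 0.18 and none passed the threshold; at 3 h 16 genes were called higher and Tia1 lower (filled symbols).

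The summed levels of marker genes of some cell types also differed between the 3 h and the untreated libraries. The 8 pan-neuronal markers summed to 1858 and 1388 cRPKM at 3 h, below all 4 other libraries, and the 6 excitatory neuron markers to 334 and 284 against 398 and 538 in untreated cultures. The 7 astrocyte markers summed to 901 and 1892 at 3 h, so they were high in replicate 2, as in the untreated (836 and 1253) and 0.5 h (844 and 1389) pairs. The 5 interneuron markers summed to 244 and 355 at 3 h against 323 and 539 untreated, so these groups overlapped. No marker of these 4 lists was at 0. The 7 oligodendrocyte lineage markers summed to 301 and 212 at 3 h against 291 and 197 untreated. The 5 fibroblast markers summed to 43.9 and 26.9 against 43.4 and 30.6, and the 6 progenitor markers to 104 and 80.4 against 91.1 and 81.9. The part of these differences in the members' changes was not tested, and in bulk RNA fewer cells of a type and less RNA per cell cannot be told apart. Among the members, replicate 1 had the higher value for 34 of 44 in the untreated pair and for 9 of 44 at 3 h, with a median gap between replicates of 0.10 and 0.14 on the log2 scale. Over the 15895 genes tested, replicate 1 was the higher for 6862 and 6216, with median gaps of 0.13 and 0.24.

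SR proteins carry RNA recognition motifs and a domain rich in arginine and serine. All 10 SR genes had log2 changes above 0 at 3 h, as had 48.1% of all genes. Of the 10, 4 were called higher, where 8.71% of all genes were: Srsf2, Srsf5, Srsf6 and Srsf11. Srsf6 (ENSMUSG00000016921), which binds exonic enhancers, was measured at 45.5 and 38.4 cRPKM in the untreated libraries, 46.5 and 45.2 at 0.5 h and 67.8 and 71.4 at 3 h. Its change was 0.78 ± 0.12 (adjusted p = 0.015), the largest of the SR genes called, and the 3 h values lay well above all others. Srsf2, the speckle protein also known as SC35, went from 64.6 and 60.4 cRPKM through 64.8 and 66.8 at 0.5 h to 85.6 and 95.8 at 3 h (0.59 ± 0.09, adjusted p = 0.016). Srsf11, which has been linked to the splicing of neural microexons, stood at 36.7 and 37.8 cRPKM in the untreated libraries, 38.1 and 41.2 at 0.5 h and 49.5 and 58.6 at 3 h (0.59 ± 0.10, adjusted p = 0.019). The most abundant gene of the group, Srsf5, stood at 151 and 145 cRPKM in the untreated libraries, 157 and 175 at 0.5 h and 183 and 248 at 3 h, a change of 0.59 ± 0.14 with an adjusted p of 0.046. For Srsf5 3 h replicate 1 was not far above the higher 0.5 h library while replicate 2 was. Its call was lost by limma (adjusted p = 0.086) and with library totals (0.074), and kept in 1 of the 6 fits that leave out a library.

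The other SR genes did not pass the main test, nor did they pass by limma. DESeq2 called Srsf1 (adjusted p = 0.016), Srsf3 (0.0076), Srsf9 (0.016) and Srsf10 (0.041) higher but not Srsf4 and Srsf7. It called 14.4% of all genes higher. Srsf1, the founding member of the family, read 39.1 and 32.9 cRPKM in the untreated libraries, 37.1 and 34.1 at 0.5 h and 47.0 and 48.0 at 3 h (0.45 ± 0.13, adjusted p = 0.067, 0.014 with the replicate block). Srsf9 read 23.4 and 23.8 cRPKM in the untreated libraries, 23.0 and 24.5 at 0.5 h and 27.3 and 28.0 at 3 h (0.28 ± 0.08, adjusted p = 0.069, 0.032 with the block). In both genes the 3 h pair lay above all other libraries and was tight, so the groups did not overlap. Srsf3, the smallest SR protein, had one of the larger differences but also the largest SE of the 44, with 48.3 and 39.7 cRPKM untreated and 56.1 and 89.7 at 3 h (0.77 ± 0.22, adjusted p = 0.065). Srsf10, which acts as a repressor when dephosphorylated, had a value of 0.43 ± 0.14 (adjusted p = 0.085). Srsf4 and Srsf7 had the smallest values, 0.14 ± 0.08 and 0.20 ± 0.12, with 95% intervals of −0.06 to 0.34 and −0.09 to 0.48. A rise of the size seen for Srsf6 lies outside both of these intervals.

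The Tra2 proteins resemble SR proteins and bind purine-rich enhancers. Tra2a (ENSMUSG00000029817) had the largest change of all 44 genes. Its level was 37.6 and 35.5 cRPKM in the untreated libraries, 41.1 and 42.9 at 0.5 h and 73.8 and 107 at 3 h, so that the 0.5 h pair already lay above the untreated pair and both 3 h values lay far above the rest, with replicate 2 the higher. On the log2 scale the 0.5 h difference of 0.18 ± 0.16 had an adjusted p of 1, and the rise by 3 h was 1.36 ± 0.16 (adjusted p = 0.0099). Its relative Tra2b read 35.6 and 29.6 cRPKM in the untreated libraries, 36.6 and 32.1 at 0.5 h and 45.6 and 56.7 at 3 h and rose by 0.70 ± 0.15 (adjusted p = 0.037). The 12 SR and Tra2 genes gave 6 calls higher (8 with the block), and their median change was 0.59. Tra2b kept its call in 1 of the 6 fits that leave out a library.

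The promoter windows of the Tra2 pair are shown because a cAMP response element, the site bound by the activity-regulated factor CREB, was found in that of Tra2a. Windows reach from 250 bases before to 50 bases after each RefSeq transcription start on build GRCm38.p6, and 40 of the 44 members had at least one, those without being U2af2, Snrpb, Khdrbs1 and Khdrbs3. The full element TGACGTCA was found in the windows of 2 members, Tra2a and Snrpa, that is in 5.0% of those members and 3.3% of the 12075 tested genes with a window. Snrpa, a U1 gene that was not called at 3 h, is printed for contrast, in the one of its windows that holds the element. The sequences are the 250 bases before the start, 5′ to 3′ on the gene's own strand, which is the minus strand for all 3, at chr6:49264053-49264302, chr16:22266006-22266255 and chr7:27196272-27196521. Capitals mark TGACG or its complement CGTCA, and both overlap within the full element.
Tra2a: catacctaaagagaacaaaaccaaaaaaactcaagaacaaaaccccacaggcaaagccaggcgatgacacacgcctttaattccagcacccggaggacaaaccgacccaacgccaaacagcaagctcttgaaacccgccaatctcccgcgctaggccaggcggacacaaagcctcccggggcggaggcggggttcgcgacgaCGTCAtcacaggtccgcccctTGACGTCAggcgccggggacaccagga
Tra2b: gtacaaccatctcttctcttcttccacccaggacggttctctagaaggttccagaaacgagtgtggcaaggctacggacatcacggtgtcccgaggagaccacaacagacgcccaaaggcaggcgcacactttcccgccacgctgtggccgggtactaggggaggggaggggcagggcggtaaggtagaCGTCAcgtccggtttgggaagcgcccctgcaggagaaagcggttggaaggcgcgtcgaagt
Snrpa: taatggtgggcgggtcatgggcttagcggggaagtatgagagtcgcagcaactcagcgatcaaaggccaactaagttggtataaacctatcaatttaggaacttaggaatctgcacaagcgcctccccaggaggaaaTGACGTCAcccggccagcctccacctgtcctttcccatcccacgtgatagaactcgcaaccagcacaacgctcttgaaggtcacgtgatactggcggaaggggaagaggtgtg

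In Tra2a the full element begins 27 bases before the RefSeq start, and a further copy of the shorter motif lies upstream of it, whereas the printed Tra2b window has only the shorter motif. In Snrpa the full element begins 113 bases before the start. A stretch just after each RefSeq start was looked for in the GENCODE M21 transcripts of the same gene. It was found for 42 of the 57 member windows, those printed for Tra2b and Snrpa included, but not for that of Tra2a. The distance given for Tra2a therefore rests on the RefSeq start alone. The shorter motif TGACG, searched on both strands, occurred in the windows of 21 of 40 members (52.5%) and of 32.8% of the 12075 genes. By single window the shares were 49.1% of 57 member windows and 28.3% of 15410. It was present for 12 of the 15 members with a window that were called higher at 3 h and for 9 of the other 25. The AP-1 motif TGANTCA was found for 2 members (5.0% against 6.4% of genes), the GC box GGGCGG for 27 (67.5% against 65.2%) and the E-box CACGTG for 4 (10.0% against 11.1%). These are matches of letters in a fixed window, described without a test.

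At the 3′ splice site and branch point, the factors that make first contact with the intron differed in their values. U2af1 (ENSMUSG00000061613), the small U2AF subunit that reads the terminal AG, stood at 45.5 and 43.9 cRPKM in the untreated libraries, 48.1 and 48.9 at 0.5 h and 64.5 and 71.6 at 3 h and rose by 0.66 ± 0.08 (adjusted p = 0.01). Its partner U2af2, which binds the pyrimidine tract, stood at 78.9 and 73.3 cRPKM in the untreated libraries, 80.9 and 77.5 at 0.5 h and 85.9 and 83.1 at 3 h. That difference, 0.21 ± 0.11, did not pass (adjusted p = 0.22, 95% interval −0.05 to 0.47), although both 3 h values lay above both untreated ones. Sf1, which binds the branch point before the U2 snRNP arrives, stood at 35.2 and 33.6 cRPKM in the untreated libraries, 37.2 and 35.7 at 0.5 h and 54.9 and 53.5 at 3 h and rose by 0.71 ± 0.10 (adjusted p = 0.013). Its 3 h values were close to each other and far from the other 4.

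Of the SF3 proteins, which lock the U2 snRNP onto the branch point, 1 of 5 was called. Sf3b3 read 30.8 and 29.8 cRPKM in the untreated libraries, 31.8 and 30.4 at 0.5 h and 37.7 and 40.3 at 3 h (0.42 ± 0.09, adjusted p = 0.036). The Sf3b3 call was kept in 1 of the 6 fits that leave out a library. Sf3b1, the subunit that clamps the branch helix, read 54.1 and 50.8 cRPKM in the untreated libraries, 54.8 and 54.4 at 0.5 h and 61.1 and 64.0 at 3 h (0.31 ± 0.10, adjusted p = 0.091, 0.029 with the block). The abundant subunit Sf3b2 read 72.2 and 77.4 cRPKM in the untreated libraries, 73.5 and 78.2 at 0.5 h and 71.2 and 74.4 at 3 h, with overlapping groups. Its value of 0.02 ± 0.09 had a 95% interval of −0.21 to 0.24, and that of Sf3a1 (0.03 ± 0.10) one of −0.23 to 0.28; scaled to library totals both values turned slightly negative. Sf3a3 had a value of 0.24 ± 0.10 (adjusted p = 0.16). The 8 genes together had 3 called higher, or 4 with the block, and a median of 0.27.

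Among the snRNP proteins, Snrpb, which forms part of the Sm ring shared by the spliceosomal snRNPs, read 49.8 and 46.7 cRPKM in the untreated libraries, 52.4 and 50.7 at 0.5 h and 71.2 and 72.9 at 3 h and rose by 0.63 ± 0.09 (adjusted p = 0.013). Prpf4b, a kinase that acts on the tri-snRNP, read 26.0 and 26.4 cRPKM in the untreated libraries, 27.2 and 30.8 at 0.5 h and 36.1 and 45.9 at 3 h and rose by 0.70 ± 0.12 (adjusted p = 0.021). Neither gene had overlapping groups. The U1 gene Snrnp70, the most abundant of the 5, read 101 and 111 cRPKM in the untreated libraries, 105 and 133 at 0.5 h and 127 and 127 at 3 h (0.31 ± 0.13, adjusted p = 0.15), with 0.5 h replicate 2 the highest of the 6 values. The other U1 gene, Snrpa, read 58.7 and 64.4 cRPKM in the untreated libraries, 57.0 and 64.95 at 0.5 h and 53.8 and 78.4 at 3 h, a split between the 3 h replicates that left the groups overlapping (0.15 ± 0.16, adjusted p = 0.55; negative without 3 h replicate 2). Prpf8, the large protein at the catalytic centre, had a value of 0.23 ± 0.10 (adjusted p = 0.18).

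None of the 4 SR-related coactivators passed the main test. At an unadjusted p under 0.05 there were 2 higher, where 17.8% of all genes were. DESeq2 called 2 higher (14.4% of all genes), the block 2 (18.6%) and limma 0 (6.44%). Srrm2, a very large scaffold protein of nuclear speckles, read 75.9 and 85.8 cRPKM in the untreated libraries, 80.5 and 103 at 0.5 h and 101 and 111 at 3 h (0.45 ± 0.15, adjusted p = 0.093, 0.023 with the block). Its 3 h pair was high, but 0.5 h replicate 2 lay between its values. Rbm25, a U1-associated factor, read 33.2 and 32.6 cRPKM in the untreated libraries, 35.4 and 35.2 at 0.5 h and 36.7 and 38.3 at 3 h (0.24 ± 0.09, adjusted p = 0.11, 0.037 with the block). Rbm39, a relative of U2af2, read 72.3 and 70.0 cRPKM in the untreated libraries, 71.7 and 75.1 at 0.5 h and 68.9 and 90.8 at 3 h, with overlapping groups: at 3 h replicate 1 gave the lowest of the 6 values and replicate 2 the highest. Its adjusted p was 0.29 and that of Srrm1 was 0.37.

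The TIA pair had a call in each direction. TIA proteins bind U-rich sequence next to weak 5′ splice sites, help to recruit U1, and also gather in stress granules. Tia1 (ENSMUSG00000071337) read 25.6 and 24.0 cRPKM in the untreated libraries, 25.4 and 26.3 at 0.5 h and 14.5 and 14.7 at 3 h, a fall with tight replicates in every group (−0.71 ± 0.09, 0.612-fold of the untreated level, adjusted p = 0.011). Tial1 read 16.7 and 17.1 cRPKM in the untreated libraries, 16.96 and 18.7 at 0.5 h and 21.2 and 25.3 at 3 h, and rose by 0.51 ± 0.10 (adjusted p = 0.027). The Tial1 call was lost by limma (adjusted p = 0.058) and with library totals (0.053) and kept in 1 of the 6 fits that leave out a library, where that of Tia1 was kept in 4. The ratio of Tial1 to Tia1 within a library was 0.652 and 0.715 untreated, 0.667 and 0.713 at 0.5 h, and 1.46 and 1.72 at 3 h, so that the less abundant member of the pair became the more abundant one. Of the 44 genes, Tia1 alone was called lower.

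**Figure D2:**
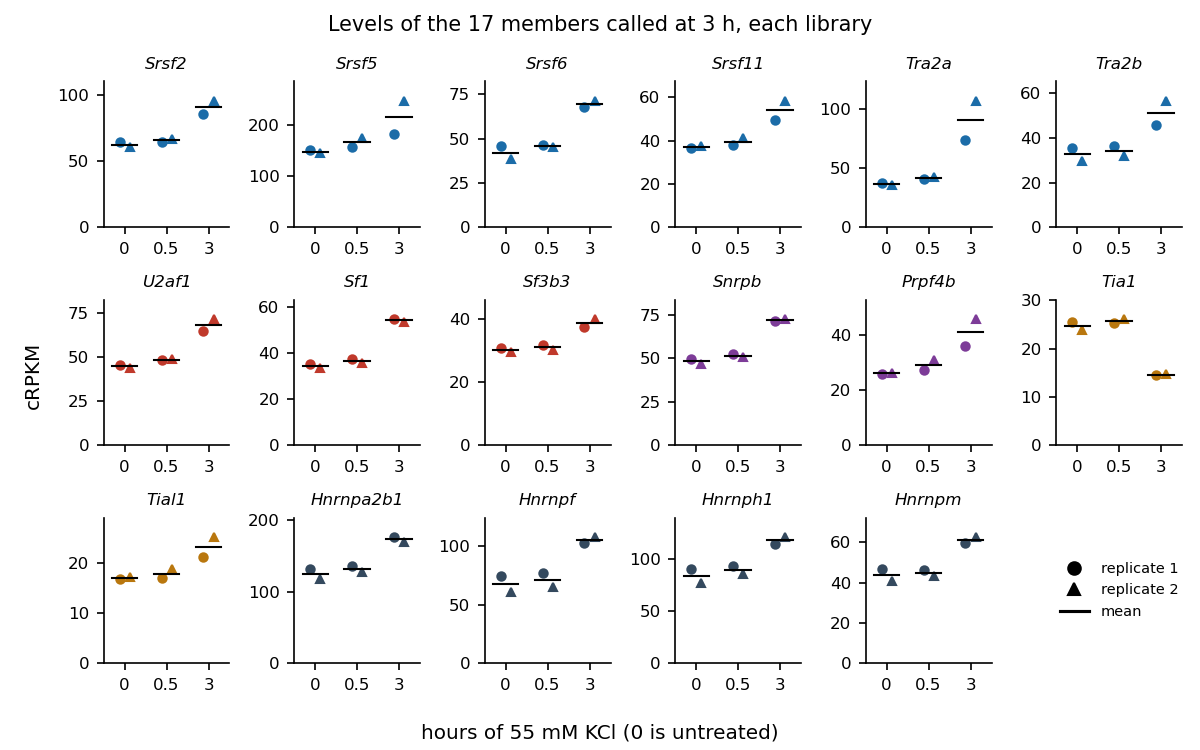
cRPKM of each of the 17 genes called at 3 h, in every library, against hours of KCl (circles replicate 1, triangles replicate 2, bars the mean of 2). The 0.5 h values stay near the untreated ones, and at 3 h both libraries are above them for 16 genes and below them for Tia1.

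The hnRNP genes gave 4 calls higher of 11 (36.4%), or 8 in the blocked fit (72.7%), beside 8.71% and 18.6% of all genes. The median change was 0.45, beside −0.02 over all genes. Each of the 4 calls was lost when any 1 of the 6 libraries was left out, with adjusted p from 0.055 to 0.29. Hnrnpf and Hnrnph1, close relatives that bind runs of G, rose together. Hnrnpf read 74.7 and 61.1 cRPKM in the untreated libraries, 76.8 and 65.5 at 0.5 h and 102 and 108 at 3 h (0.69 ± 0.15, adjusted p = 0.037). Hnrnph1 read 90.7 and 76.9 cRPKM in the untreated libraries, 93.6 and 85.6 at 0.5 h and 114 and 122 at 3 h (0.55 ± 0.13, adjusted p = 0.043). In both, replicate 1 was the higher of the untreated and of the 0.5 h pair, and the 3 h pair was above all of these. Hnrnpm, which binds GU-rich sequence, read 46.6 and 40.6 cRPKM in the untreated libraries, 46.5 and 43.2 at 0.5 h and 59.7 and 62.9 at 3 h (0.54 ± 0.11, adjusted p = 0.033). Hnrnpa2b1, a core packaging protein that also carries RNA into dendrites, read 132 and 118 cRPKM in the untreated libraries, 137 and 128 at 0.5 h and 177 and 170.3 at 3 h (0.54 ± 0.13, adjusted p = 0.045).

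A further 4 hnRNP genes passed edgeR's test with the replicate block and not without it; DESeq2 called all 4 and limma Hnrnpu. Hnrnpu, a nuclear scaffold protein, read 128 and 121 cRPKM in the untreated libraries, 128 and 124 at 0.5 h and 173 and 159.8 at 3 h (0.48 ± 0.12, adjusted p = 0.052, 0.012 with the block). Tardbp, whose product TDP-43 represses cryptic exons, read 34.0 and 32.8 cRPKM in the untreated libraries, 32.6 and 33.4 at 0.5 h and 39.1 and 49.1 at 3 h (0.45 ± 0.11, 0.052 and 0.025). Hnrnpc, which competes with U2AF for U tracts, read 66.1 and 71.5 cRPKM in the untreated libraries, 67.6 and 77.2 at 0.5 h and 77.4 and 95.3 at 3 h (0.38 ± 0.12, 0.084 and 0.017). Hnrnpk, which binds C-rich sequence, read 137 and 119.8 cRPKM in the untreated libraries, 137 and 127 at 0.5 h and 149 and 174 at 3 h (0.39 ± 0.12, 0.086 and 0.041). In each of the 4 the 3 h pair lay above both untreated libraries.

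The most abundant member, Hnrnpa1, the classical antagonist of SR proteins, did not pass the test (adjusted p = 0.73): it read 199 and 179 cRPKM in the untreated libraries, 205 and 189 at 0.5 h and 212 and 174 at 3 h, with 3 h replicate 2 the lowest of all 6 values. Its value was 0.09 ± 0.16 with a 95% interval of −0.30 to 0.47, and it was negative without 3 h replicate 1. Hnrnpl, which binds CA repeats and has been tied to exons regulated by depolarisation, had 81.4 and 79.8 cRPKM untreated and 80.4 and 65.7 at 3 h (−0.08 ± 0.14, adjusted p = 0.72). Hnrnpd, which binds AU-rich elements, had 38.5 and 34.5 cRPKM untreated and 33.6 and 28.7 at 3 h (−0.17 ± 0.14, adjusted p = 0.44). These were the hnRNP genes with values below 0, and neither passed the test; Hnrnpl had a value of 0.11 without 3 h replicate 2.

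The STAR proteins regulate neurexin splicing, and Khdrbs1 is known to do so in response to depolarisation. Neither gene was called by edgeR, DESeq2 or limma, and at an unadjusted p under 0.05 there was none. Khdrbs1 read 37.9 and 34.5 cRPKM in the untreated libraries, 37.2 and 36.2 at 0.5 h and 40.6 and 41.1 at 3 h (0.23 ± 0.10, adjusted p = 0.17, 0.047 with the block). Khdrbs3 read 92.6 and 81.1 cRPKM in the untreated libraries, 94.7 and 83.7 at 0.5 h and 99.8 and 73.9 at 3 h, a wide split at 3 h with overlapping groups (0.06 ± 0.20, 95% interval −0.42 to 0.55). Without 3 h replicate 1 its value was −0.22 and without 3 h replicate 2 it was above 0.

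**Figure D3:**
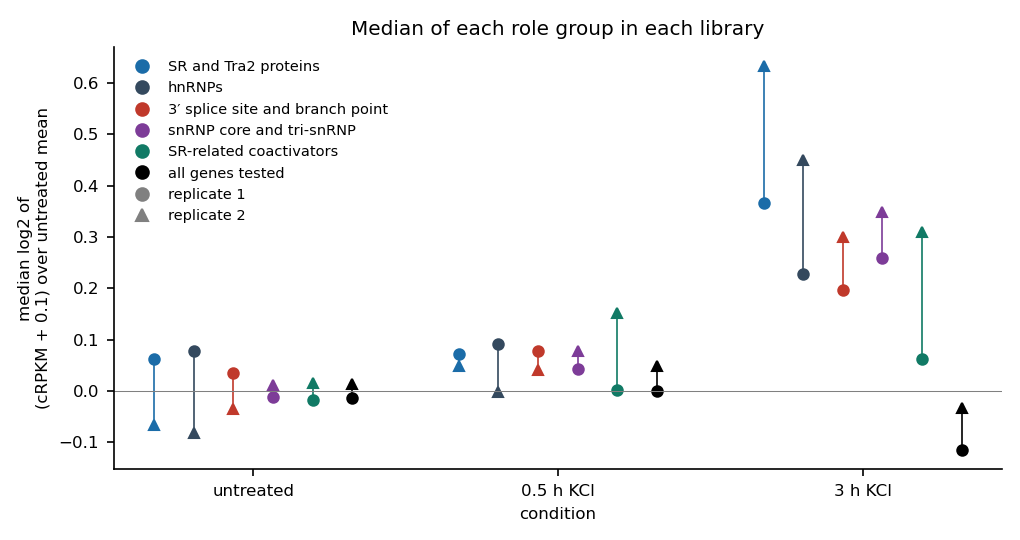
Median over the genes of a role group of log2((cRPKM + 0.1) / (untreated mean + 0.1)), for each library and condition (circles replicate 1, triangles replicate 2). At 3 h the SR and Tra2 medians were 0.37 and 0.63 and those of hnRNPs 0.23 and 0.45, while the medians over all genes tested were −0.12 and −0.03.

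Set side by side, the role groups overlapped in their changes. The medians at 3 h were 0.59 for SR and Tra2 genes, 0.45 for hnRNPs, 0.31 for snRNP proteins, 0.27 for the 3′ splice site group and 0.23 for coactivators. The values ran from 0.14 to 1.36 in the first, from −0.17 to 0.69 in the second and from 0.02 to 0.71 in the 3′ splice site group, so their ranges overlapped. By library, every one of these 5 medians was higher in 3 h replicate 2 than in replicate 1, and both were above the median of all genes tested in the same library. Differences between role groups were not tested.

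The comparison of both KCl times asks directly whether the effect at 3 h differs from that at 0.5 h. In it 11 members (25.0%) were higher at 3 h and Tia1 lower, where 6.39% of all genes were called higher and 4.87% lower; with the block 22 were higher (15.6% of all genes) and 1 lower (15.6%). DESeq2 called 24 higher and 1 lower (12.5% and 10.5% of all genes), and limma 8 and 1 (4.32% and 5.54%). The 11 were Srsf2, Srsf6, Srsf11, Tra2a, U2af1, Sf1, Sf3b3, Snrpb, Prpf4b, Tial1 and Hnrnpm. All 12 were also called against untreated cultures; both comparisons share the 3 h libraries. The largest values among the genes called were 1.18 ± 0.16 for Tra2a (adjusted p = 0.017), 0.68 ± 0.12 for Srsf6 (0.028) and −0.75 ± 0.09 for Tia1 (0.013). Srsf3, with 0.71 ± 0.22, was not called (adjusted p = 0.092). By limma Srsf11, Sf3b3, Prpf4b and Tial1 lost their calls, and scaled to library totals these and Hnrnpm did, so that 6 were higher; none of the 12 kept its call without either 0.5 h library. Without either untreated library 2 kept it, 10 did without 3 h replicate 1 and 7 without 3 h replicate 2.

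Ratios of related genes within a library do not depend on library scaling, and 6 pairs were compared after the values had been seen. The ratio of Tra2a to Tra2b was 1.06 and 1.20 untreated, 1.12 and 1.34 at 0.5 h, and 1.62 and 1.89 at 3 h. U2af1 to U2af2, the partners of one heterodimer, went from 0.576 and 0.599 untreated through 0.595 and 0.630 to 0.751 and 0.861. For Sf1 against Sf3b1, which occupy the branch point in turn, the values were 0.651 and 0.662 untreated and 0.898 and 0.835 at 3 h. Srsf3 to Srsf7, similar short SR proteins, stood at 1.20 and 1.10 and then at 1.46 and 1.95. Hnrnpa2b1 to Hnrnpa1 stood at 0.661 and 0.657 and then at 0.839 and 0.979. In every pair, the Tial1 and Tia1 pair included, both 3 h ratios lay above both untreated ratios. As the pairs were chosen for their values, the ratios are a description and were not tested.

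**Figure D4:**
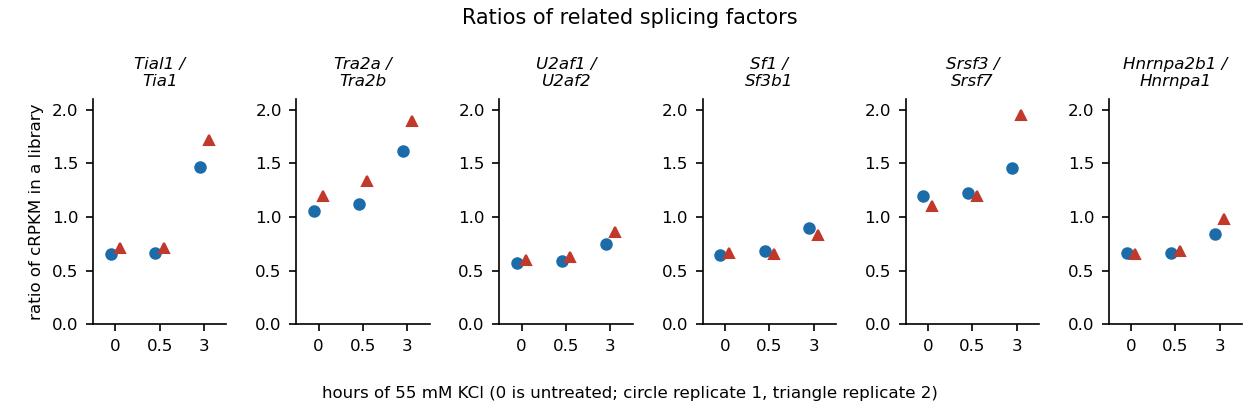
Ratio of cRPKM of 6 pairs of related splicing factors in each library, against hours of KCl (circles replicate 1, triangles replicate 2). The 0.5 h ratios lie close to the untreated ones, and both 3 h ratios lie above them, most for Tial1 over Tia1 (0.652 and 0.715 untreated, 1.46 and 1.72 at 3 h).

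The rest of the pathway was read from a list of 93 further spliceosome, exon junction and hnRNP genes. This list too was chosen with earlier results of these data known. At 0.5 h 0 were called by edgeR, DESeq2, limma or the block, and 0 reached an unadjusted p under 0.05. At 3 h 18 (19.4%) were called higher and 0 lower, beside 8.71% and 6.84% of all genes, with a median log2 change of 0.26. With the block 37 were higher and 1, Prpf40b, lower (18.6% of all genes each way), DESeq2 called 34 higher (14.4% of all genes), and limma 9 (6.44%). In the U2 group 5 of 13 rose: Dhx15 (0.88 ± 0.13, adjusted p = 0.013), a helicase of spliceosome disassembly, and Phf5a, Cherp, Ddx46 and Snrpa1. Of these, Phf5a, Ddx46 and Snrpa1 were not called by limma or with library totals. In the exon junction group 4 of 8 rose: Sap18 (1.08 ± 0.19, 0.021), Casc3, Eif4a3 and Magoh, of which Eif4a3 and Magoh were not called by limma or with library totals. The counts were 2 of 14 in the U1 and Sm group, 3 of 21 in the U5 and tri-snRNP group and 3 of 20 in the catalytic group. The tri-snRNP gene Prpf38b had the smallest adjusted p of the list (0.96 ± 0.09, 0.0068), and after Dhx15 came Bud31 of the catalytic core (0.70 ± 0.10, 0.013), Txnl4a of U5 (0.63 ± 0.10, 0.017) and Snrpc of U1 (0.64 ± 0.10, 0.018). Of the 17 other hnRNP and FET genes 1 rose, Pcbp2 (0.48 ± 0.09, 0.029), with a median of 0.17; that is 5.88%, near the 8.71% of all genes, and with the block 7 of the 17 were higher. Scaled to library totals 9 of the 93 were higher, and without either untreated library 0 were. Without 3 h replicate 1 there were 33, and 6 without either 0.5 h library.

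The members also share features of their gene models. In the GENCODE M21 annotation 34 of 44 (77.3%) have at least 1 transcript classed as a target of nonsense-mediated decay, against 26.3% of 15347 protein-coding genes tested and 29.3% of the 4812 expressed at or above the level of the lowest member. The share was 11 of 12 for SR and Tra2 genes, 7 of 11 for hnRNPs and 4 of 8 for the 3′ splice site group. A retained-intron transcript is annotated for 38 of 44 (86.4%), against 54.4% and 64.8% of the same genes. Members had a median of 9.5 annotated transcripts, and those gene sets 5 and 6. Tia1 has 28 annotated transcripts, 4 of them decay targets and 14 with a retained intron, while Tra2a has 5, with 1 and 2. The deposited values hold 1 count per gene, so reads of coding and decay transcripts were not separated here.

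The libraries do not mark the strand, so reads of overlapping genes on opposite strands cannot be told apart. The exons of Srsf4 overlap an opposite transcript, Gm12992, over 43.0% of their length, and those of Tardbp overlap Masp2 over 23.3%. Those of Srsf2 overlap Mettl23 over 15.6% and Mfsd11 over 9.7%. For Hnrnpf the largest overlap was 13.5%, Snrpa had a smaller one with BC024978, and Hnrnpm shares 14.7% with March2 on the same strand. For the other 12 members with an annotated exon overlap it was at most 6.9%. How reads that match several places were counted is not given in the sources used here, which bears on genes with close copies such as the hnRNPs.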

How the data were processed

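RNA sequencing of 6 libraries made with the TruSeq RNA kit V2 was used, per the labels. The authors deposited, for each gene of a library, a read count and a cRPKM value, that is RPKM by their own correction, which is not defined in the sources used here; Bowtie and build mm9 are named per the submitters' processing notes. Of 22667 genes listed, 1114 had no value. GENCODE M21 (GRCm38) gave symbols, transcript classes, overlaps and the transcripts used to check promoter windows, and no coordinates were taken from it.

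Counts were fitted as deposited with edgeR 4.0.16 (quasi-likelihood test, scaling by TMM, low genes removed by filterByExpr at a count of 10, all 3 groups in one fit, 3 residual degrees of freedom), in R 4.3.3. DESeq2 1.42.0, limma 3.58.1 on log2(cRPKM + 0.1), other scalings, no filter, a replicate block and leaving out each library were alternatives. The procedure was tested on simulated data. Those counts were drawn independently for each library, unlike the real ones, and the outcome is not used here. Same-numbered libraries deviated together (r = 0.81, 0.58 and 0.61 between groups, across 15895 genes). The blocked fit took the numbers to pair them, which rests on the data, not on the labels. The main fit has no block, and 10 members were called by edgeR at 3 h against untreated with the block and not without it. Of these, DESeq2 without a block called all but Khdrbs1, and limma called Hnrnpu. Library totals were 98882007 to 141865913 counts.

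The members and gene lists were chosen with earlier results of these data known. Each library's value is printed for members called in any comparison with or without the block and for the 2 most abundant of each role; other members are summarised, a few of them by value, and of the other pathway genes up to 6 with the smallest adjusted p were to be given with statistics. Prpf40b, Pcbp2 and the further pathway genes listed by name were added after their values were seen. Protein sequences were not used here.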

Additional observations from a re-analysis of the deposited data

Results flagged for a closer look

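For 12 members the effect of KCl at 3 h differed from that at 0.5 h, by the direct test of 3 h against 0.5 h (edgeR's quasi-likelihood test, adjusted p under 0.05 over all genes tested). Among SR and Tra2 genes the differences on the log2 scale were 0.54 for Srsf2, 0.68 for Srsf6, 0.52 for Srsf11 and 1.18 for Tra2a. At the 3′ splice site and branch point they were 0.57 for U2af1 (adjusted p = 0.017), 0.65 for Sf1 and 0.40 for Sf3b3. For the snRNP genes Snrpb and Prpf4b they were 0.56 and 0.57. Tial1 was higher by 0.46 and Tia1 had a difference of −0.75. Hnrnpm, with 0.53, was the hnRNP gene among them. By limma Srsf11, Sf3b3, Prpf4b and Tial1 did not pass, nor did these and Hnrnpm with library totals. Without either 0.5 h library none of the 12 passed, and the groups have 2 libraries each.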

How the results depend on the processing

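At 0.5 h the count of members called was 0 under all 12 alternatives. At 3 h the count higher was 16, with 27 by DESeq2 and 26 with the replicate block, and from 0 to 16 when 1 library was left out. It was 16 with RLE size factors and without a filter, and 15 with library totals and by limma. All 17 calls were kept by DESeq2, RLE size factors, no filter and the block, and 15 by library totals and limma, which both lost Srsf5 and Tial1. The count lower was 1, and from 0 to 1 without a library. For 3 h against 0.5 h the count higher was 11, with 24 by DESeq2, 22 with the block, 6 with library totals and 0 to 12 without a library; the count lower was 0 to 1 without a library. Of the 93 other pathway genes 18 were higher at 3 h, with 34 by DESeq2, 37 with the block, 9 with library totals, 9 by limma and 0 to 33 without a library. The count lower was 0, and 1 by DESeq2 and with the block. The block added calls for members as given with the results and removed none. Leaving out an untreated library leaves that group with 1 library, assumed to vary like the others, and fewer degrees of freedom. No called value changed sign. Values that were not called changed sign for 33 members at 0.5 h, 6 at 3 h and 7 between the KCl times. With library totals the median over all genes at 3 h was −0.08 in place of −0.02. The lowest count of a member in a library was 3086; the effect of depth or of the number of libraries on the calls was not tested.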
